A study of Mus musculus with 13 samples.

Results

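The genes described here are those of major histocompatibility complex (MHC) class I antigen presentation: the light chain gene B2m, the heavy chain genes H2-D1, H2-K1, H2-T22, H2-T23 and H2-M3, the peptide transporter genes Tap1 and Tap2, the loading chaperone gene Tapbp and the transactivator gene Nlrc5. They were taken by exact symbol, and all 10 were found among the 20971 genes measured. RNA had been sequenced from the cortex of 6-month-old C57BL/6 mice, 6 of genotype APPPS1 and 7 of genotype APPPS1;Apoe-/-. Both groups are labelled as carrying the APPPS1 transgenes, which are expressed from the neuronal mouse Thy1 promoter and lead to amyloid plaques. The second group also lacks apolipoprotein E, the main lipid carrier of the brain, in every cell. The design holds no group labelled as without the transgenes. The comparison addressed how loss of Apoe changes gene expression in the cortex of mice labelled APPPS1.

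MHC class I molecules carry peptides from inside the cell to its surface, where CD8 T cells read them. Proteasomes cut the peptides, the transporter formed by Tap1 and Tap2 moves them into the endoplasmic reticulum, and tapasin, the product of Tapbp, holds the empty heavy chain and beta-2-microglobulin at the transporter until a peptide binds. Transcription of these genes is driven by NLRC5 and by interferons. In the brain, microglia and endothelial cells express class I genes at rest, and plaque-associated microglia raise them.

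Levels are in RPKM, reads scaled to gene length and to the mapped reads of the library. A log2 difference is the knockout minus the APPPS1 mean of log2(RPKM + 0.5), taken from a limma fit to the 13343 genes that averaged 0.5 RPKM or more. A gene was called at a Benjamini-Hochberg adjusted p under 0.05. Libraries had 18455493 to 77005806 alignments, and the knockout libraries were the shallower ones (at most 34538031, against at least 28402328 in APPPS1). Apoe stood at 463 to 670 RPKM in the APPPS1 libraries and at 4.01 to 6.35 RPKM in the libraries labelled as knockouts. APPPS1;Apoe-/- replicates 2 and 5 stood apart from the other 11 libraries by low App (106 and 116 RPKM, against at least 176 RPKM elsewhere) and low Thy1 (52.2 and 56.9 RPKM, against at least 172 RPKM). The transgenes carry human APP and Thy1 sequence. Whether the mice of replicates 2 and 5 carried or expressed the transgenes as the others did was not tested. APPPS1;Apoe-/- replicate 4 stood apart by class II genes: the 10 genes of that list summed to 144 RPKM there, to 34.6 to 59.3 RPKM in the other knockout libraries and to 51.1 to 61.1 RPKM in the APPPS1 libraries. Results are therefore also given without these libraries.

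Cortex without Apoe held less RNA of the class I light chain, of the heavy chains H2-D1 and H2-M3 and of the loading chaperone tapasin. Of the 9 members tested, 4 were lower by limma, namely B2m, H2-D1, H2-M3 and Tapbp, 5 missed the threshold and 0 were higher. Over all 13343 genes, 4.74% were lower and 3.48% higher. The median log2 difference of the 9 members was -0.28, beside -0.01 over all genes, and 8 of the 9 differences were below 0, as were 52.3% of all. Without APPPS1;Apoe-/- replicates 2 and 5 there were 3 lower members, B2m having missed the threshold, while 3.31% of all genes were lower and 1.77% higher. Without replicate 4 there were 5, H2-K1 having passed it, while 6.4% of all genes were lower and 5.56% higher. With log2 alignments added to the model Tapbp alone passed, and 0.989% of all genes were then lower and 0.525% higher. With no filter on low values 3 members were lower, B2m having missed the threshold, beside 2.47% of all genes lower and 1.69% higher. In bulk tissue fewer cells of a type and less RNA per cell cannot be told apart.

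**Figure D1:**
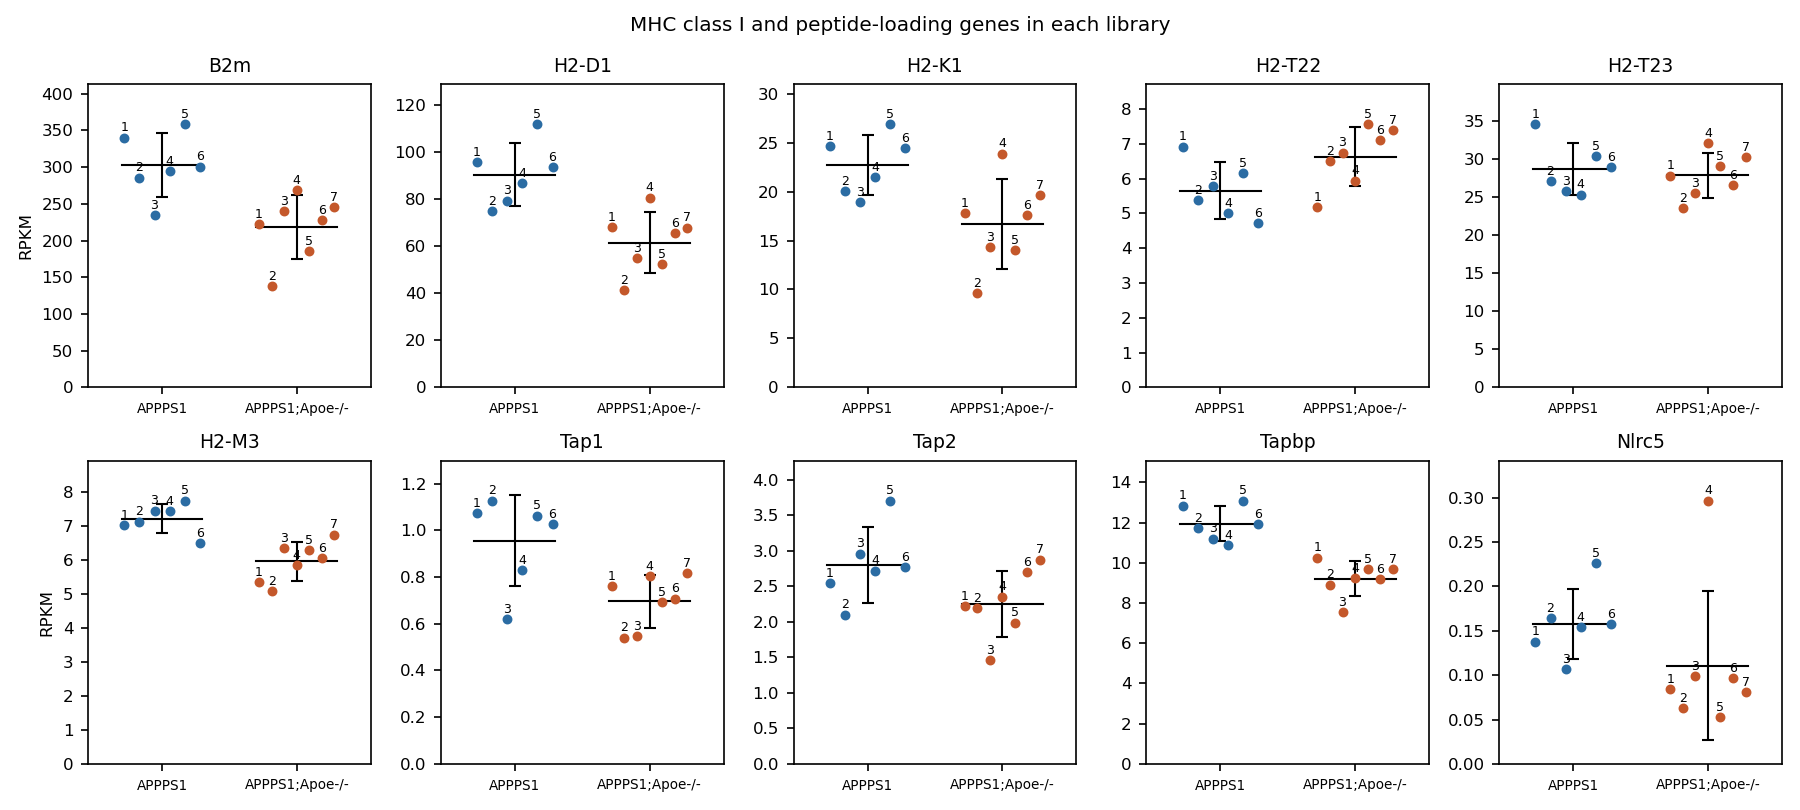
RPKM (vertical axis, from 0) of the 10 class I genes, 1 point per library with its replicate number; genotypes are side by side, and each line with its whiskers is a mean ± SD (n = 6 and n = 7). Tapbp is below 10.3 RPKM in every APPPS1;Apoe-/- library and above it in every APPPS1 library, whereas the groups overlap in the other 9 genes.

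The light chain was the most abundant of these transcripts. B2m, at chr2:122147686-122153083 on the plus strand of mm10, encodes beta-2-microglobulin, which classical heavy chains need to reach the cell surface in normal amounts. Its lowest, median and highest values were 235, 298 and 359 RPKM in the APPPS1 libraries and 138, 228 and 269 RPKM in the APPPS1;Apoe-/- libraries. The groups overlapped through APPPS1 replicate 3, the lowest of its group and the most deeply sequenced library, and 4 of 7 knockout libraries lay below it. B2m averaged 302 ± 43.7 RPKM (SD, n = 6) and 218 ± 43.7 RPKM (SD, n = 7), a level of 72.2% in the knockouts. Its log2 difference was -0.48 ± 0.13 (SE; limma adjusted p = 0.0348). It was -0.32 (adjusted p = 0.0631) without APPPS1;Apoe-/- replicates 2 and 5, and leaving out APPPS1 replicate 1, 2, 4, 5 or 6 or APPPS1;Apoe-/- replicate 1 or 5 also took the adjusted p past the threshold, to at most 0.0770.

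Of the classical heavy chains, H2-D1 was lower and H2-K1 was not called. Both genes lie in the MHC on chromosome 17, H2-D1 at chr17:35262730-35267499 on the plus strand and H2-K1 at chr17:33996017-34000347 on the minus strand, and both encode the peptide-presenting chain that T cells recognise. H2-D1 ran from 74.7 to 112 RPKM (median 90.2) in the APPPS1 libraries and from 41.2 to 80.6 RPKM (median 65.5) in the knockout libraries. Its highest knockout value, in replicate 4, was the one that overlapped the APPPS1 range, and the other 6 lay below it. H2-D1 averaged 90.4 ± 13.3 RPKM (SD, n = 6) and 61.5 ± 12.9 RPKM (SD, n = 7), with a log2 difference of -0.57 ± 0.13 (SE; limma adjusted p = 0.0137). The call held in each of the 13 fits without a single library (adjusted p at most 0.0332) and without replicates 2 and 5 (-0.42), and it ended with the alignments covariate (-0.63, adjusted p = 0.07915).

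H2-K1 was less abundant per length than H2-D1, the ratio of H2-D1 to H2-K1 having a median of 3.96 in the APPPS1 libraries and 3.74 in the knockouts. Its values ran from 18.9 to 26.9 RPKM (median 22.97) and from 9.67 to 23.9 RPKM (median 17.6). The log2 difference was -0.47 ± 0.15 (SE; limma adjusted p = 0.0715), with a 95% interval of -0.80 to -0.14. APPPS1;Apoe-/- replicate 4, at 23.9 RPKM, was the highest knockout library and lay above the APPPS1 median. Without replicate 4 the difference was -0.56 (adjusted p = 0.0206). H2-K1 also passed with all libraries kept and weighted (array weights, -0.46, adjusted p = 0.0451). It did not pass without replicates 2, 4 and 5 together (-0.38, adjusted p = 0.0526). Without replicates 2 and 5 the difference was -0.29 (adjusted p = 0.170).

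The nonclassical heavy chains did not move together. H2-T23, at chr17:36029773-36032855 on the minus strand, encodes Qa-1, which presents leader peptides of other class I molecules to receptors of natural killer cells. It ran from 25.3 to 34.6 RPKM (median 28.01) in the APPPS1 libraries and from 23.5 to 32.1 RPKM (median 27.8) in the knockouts, so that the ranges almost coincided. Its log2 difference was -0.04 ± 0.08 (SE; limma adjusted p = 0.795), with a 95% interval of -0.21 to 0.13, and the sign turned without APPPS1 replicate 1. H2-T23 was 27.1% to 36.3% of H2-D1 in the APPPS1 libraries and 39.8% to 57.2% in the knockouts; this ratio was chosen after its values were seen and was not tested.

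H2-T22, at chr17:36037128-36042747 on the minus strand, encodes a class I molecule recognised by gamma-delta T cells. It had its lowest, median and highest values at 4.71, 5.58 and 6.92 RPKM in the APPPS1 libraries and at 5.17, 6.75 and 7.57 RPKM in the knockouts, and 3 of 7 knockout libraries lay above the APPPS1 range. The log2 difference of 0.21 ± 0.09 (SE) did not pass (limma adjusted p = 0.163; 95% interval 0.02 to 0.41).

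H2-M3, at chr17:37270220-37274484 on the plus strand, encodes a molecule that binds formylated peptides of bacteria and mitochondria. It ran from 6.498 to 7.74 RPKM (median 7.28) in the APPPS1 libraries and from 5.09 to 6.74 RPKM (median 6.04) in the knockouts, with 6 of 7 knockout libraries below the lowest APPPS1 library. Its mean was 7.21 ± 0.435 RPKM (SD, n = 6) against 5.95 ± 0.581 RPKM (SD, n = 7), and the log2 difference was -0.26 ± 0.06 (SE; limma adjusted p = 0.0203). H2-M3 exceeded H2-T22 in 6 of 6 APPPS1 libraries and in 1 of 7 knockout libraries. The call of H2-M3 ended with the alignments covariate (-0.27, adjusted p = 0.1185) and when APPPS1;Apoe-/- replicates 2, 4 and 5 were all left out (-0.22, adjusted p = 0.07527).

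Reads of heavy chain genes can be shared with near-identical copies, which bears on these values. Of all stretches of 50 bases in the longest coding transcript of each gene (GENCODE mouse release 21), 44.7% of those of H2-T22 and 29.8% of those of H2-T23 also occurred in transcripts of other genes, above all H2-T10 for H2-T22 (37.9%). For H2-D1 the share was 14.3% and for H2-K1 8.79%, and 6.94% of the H2-K1 stretches lay in H2-D1. H2-M3 shared 0.576% of its stretches, and B2m and Nlrc5 shared 0%. The shares of Tap1 (6.47%, mostly with its neighbour Psmb9), Tap2 (12.6%) and Tapbp (21.0%, mostly with the gene model Gm19412) came chiefly from overlapping gene models. With stretches of 75 bases the shares were 26.1% for H2-T22, 13.1% for H2-T23, 17.5% for Tapbp and 7.1% for H2-D1. How the authors' counting divided such reads is not given in the sources used here. Read sharing therefore leaves the levels of the genes with shared stretches uncertain, above all those of H2-T22, H2-T23 and Tapbp.

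The sequences just upstream of the start sites show which letters the members share and which they do not. RefSeq promoter windows (build GRCm38.p6) were matched for 8 of the 10 members; Tap2 and Nlrc5 were not matched, and of the H2-K1 starts the first listed is shown. RefSeq starts can differ from the GENCODE gene ends given above. Shown here, 5′ to 3′ on the coding strand, are the 200 bases before the start site of the 4 lower members B2m, H2-D1, H2-M3 and Tapbp, of H2-K1, whose log2 difference was close in size to that of B2m, and of H2-T22, which lay on the other side of 0. Capitals mark matches, on either strand, to an interferon-response element (GAAA, 2 bases of any kind, then GAAA), a kappa B site (GGGA, 3 bases of any kind, then CCC), a CCAAT box (CCAAT) and a core of a cAMP-response element (TGACG), as well as one stretch, gtttcacttct, which was noticed in the sequences and is shared by H2-D1, H2-K1 and H2-M3. The windows are chr2:122147487-122147686 (plus strand) for B2m, chr17:35262894-35263093 (plus) for H2-D1, chr17:34000348-34000547 (minus) for H2-K1, chr17:37270034-37270233 (plus) for H2-M3, chr17:33919278-33919477 (plus) for Tapbp and chr17:36042743-36042942 (minus) for H2-T22.
B2m: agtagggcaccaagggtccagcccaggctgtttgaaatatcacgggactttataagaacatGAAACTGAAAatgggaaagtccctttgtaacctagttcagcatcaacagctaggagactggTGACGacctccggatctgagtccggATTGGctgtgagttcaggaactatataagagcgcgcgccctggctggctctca
H2-D1: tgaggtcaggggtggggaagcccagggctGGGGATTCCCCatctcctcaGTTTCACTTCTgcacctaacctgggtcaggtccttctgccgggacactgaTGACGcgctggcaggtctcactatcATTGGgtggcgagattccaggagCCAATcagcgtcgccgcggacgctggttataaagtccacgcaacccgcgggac
H2-K1: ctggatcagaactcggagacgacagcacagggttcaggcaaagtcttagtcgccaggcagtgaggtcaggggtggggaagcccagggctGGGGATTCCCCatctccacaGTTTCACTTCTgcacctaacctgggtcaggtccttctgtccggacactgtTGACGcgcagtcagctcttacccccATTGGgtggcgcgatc
H2-M3: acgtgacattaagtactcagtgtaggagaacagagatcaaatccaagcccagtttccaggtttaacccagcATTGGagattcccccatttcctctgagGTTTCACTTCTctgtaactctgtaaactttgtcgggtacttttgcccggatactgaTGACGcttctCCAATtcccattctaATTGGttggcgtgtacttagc
Tapbp: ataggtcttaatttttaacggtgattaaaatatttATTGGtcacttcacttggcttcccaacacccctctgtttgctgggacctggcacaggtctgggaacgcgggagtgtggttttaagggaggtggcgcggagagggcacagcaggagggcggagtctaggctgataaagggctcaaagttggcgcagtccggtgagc
H2-T22: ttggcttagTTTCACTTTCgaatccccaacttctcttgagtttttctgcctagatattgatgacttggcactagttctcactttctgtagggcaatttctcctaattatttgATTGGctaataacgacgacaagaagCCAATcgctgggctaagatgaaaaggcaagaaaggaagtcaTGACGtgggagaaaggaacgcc

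Within these windows H2-D1 and H2-K1 share an unbroken run of 46 bases, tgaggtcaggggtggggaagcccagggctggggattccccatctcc, which ends just past the kappa B site. It lies 140 bases before the start of H2-K1 and at the first base of the H2-D1 window, so the window sets where it begins and it may be longer. The kappa B pattern matches there on both strands in overlapping positions. Of the 8 windows these 2 hold this exact pattern, as do 3.93% of all 32851 windows of the same length. Looser forms of a kappa B site were not searched, so the other windows may still hold one. The B2m window, for example, holds gggaaagtccc, which has a wider gap than the pattern allows and is not marked. The interferon-response letters were found in B2m (GAAACTGAAA), H2-T22 and H2-T23, and in 2.27% of all windows. The stretch gtttcacttct does not match the exact interferon-response letters searched. It begins 151, 91 and 102 bases before the starts of H2-D1, H2-K1 and H2-M3 and occurs in 0.0396% of all windows. Looser forms of an interferon-response element were not searched, so windows without a match, those with this stretch among them, may still hold one. CCAAT was found in 7 of the 8 windows and in 29.3% of all, and TGACG in 6 of the 8 and in 15.7% of all, while an interferon-gamma activation site (TTCNNNGAA) was found in 0 of the 8 and in 5.49% of all. The Tapbp window holds a CCAAT box and no match to the other 4 patterns. A match describes the letters of these windows, which hold genes that were lower beside genes that were not called.

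Among the genes that load peptides, the chaperone gene was lower and the transporter genes were not called. Tapbp, at chr17:33915899-33929292 on the plus strand, was the one member whose groups did not overlap, a pattern that 2.17% of all tested genes showed in this direction and 1.54% in the other. It ran from 10.9 to 13.1 RPKM (median 11.8) in the APPPS1 libraries and from 7.55 to 10.3 RPKM (median 9.24) in the knockouts, with replicate 3 lowest. Its mean fell from 11.9 ± 0.876 RPKM (SD, n = 6) to 9.22 ± 0.856 RPKM (SD, n = 7), a log2 difference of -0.36 ± 0.07 (SE; limma adjusted p = 0.00401). Tapbp kept its call without replicates 2 and 5 (-0.37, adjusted p = 0.0115), with the alignments covariate (-0.42, adjusted p = 0.0230) and in each fit without a single library.

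Tap1 and Tap2 lie next to each other, at chr17:34187553-34197225 and chr17:34203527-34216321, both on the plus strand, and encode the subunits of the peptide transporter. Tap1 ran from 0.618 to 1.13 RPKM (median 1.05) in the APPPS1 libraries and from 0.541 to 0.816 RPKM (median 0.708) in the knockouts. The APPPS1 libraries fell apart, with replicates 3 and 4 at 0.618 and 0.829 RPKM and the other 4 at 1.03 RPKM or more. The log2 difference was -0.28 ± 0.10 (SE; limma adjusted p = 0.0887; 95% interval -0.48 to -0.07), and without APPPS1 replicate 3 it was -0.35 (adjusted p = 0.0228). Tap2 was the more abundant in all 13 libraries. It ran from 2.10 to 3.71 RPKM (median 2.75) and from 1.46 to 2.88 RPKM (median 2.23), and its log2 difference was -0.26 ± 0.12 (SE; limma adjusted p = 0.186; 95% interval -0.52 to -0.01). APPPS1 replicate 5 was the highest and APPPS1;Apoe-/- replicate 3 the lowest library for Tap2.

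Nlrc5, at chr8:94434356-94527272 on the plus strand, encodes the transactivator of class I promoters and lay below the filter. It ran from 0.107 to 0.226 RPKM (median 0.156) in the APPPS1 libraries and from 0.0525 to 0.297 RPKM (median 0.0846) in the knockouts. Of the 7 knockout libraries 6 lay below every APPPS1 library, and replicate 4 lay above all 12 others. Its RPKM amounted to roughly 7 to 69 reads per library, estimated from the longest coding transcript and the number of alignments, against 38 to 141 for Tap1 and 2952 to 15532 for B2m. In the fit without the filter its log2 difference was -0.12 ± 0.08 (SE; limma adjusted p = 0.4475), a scale on which the added 0.5 RPKM outweighs the gene.

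**Figure D2:**
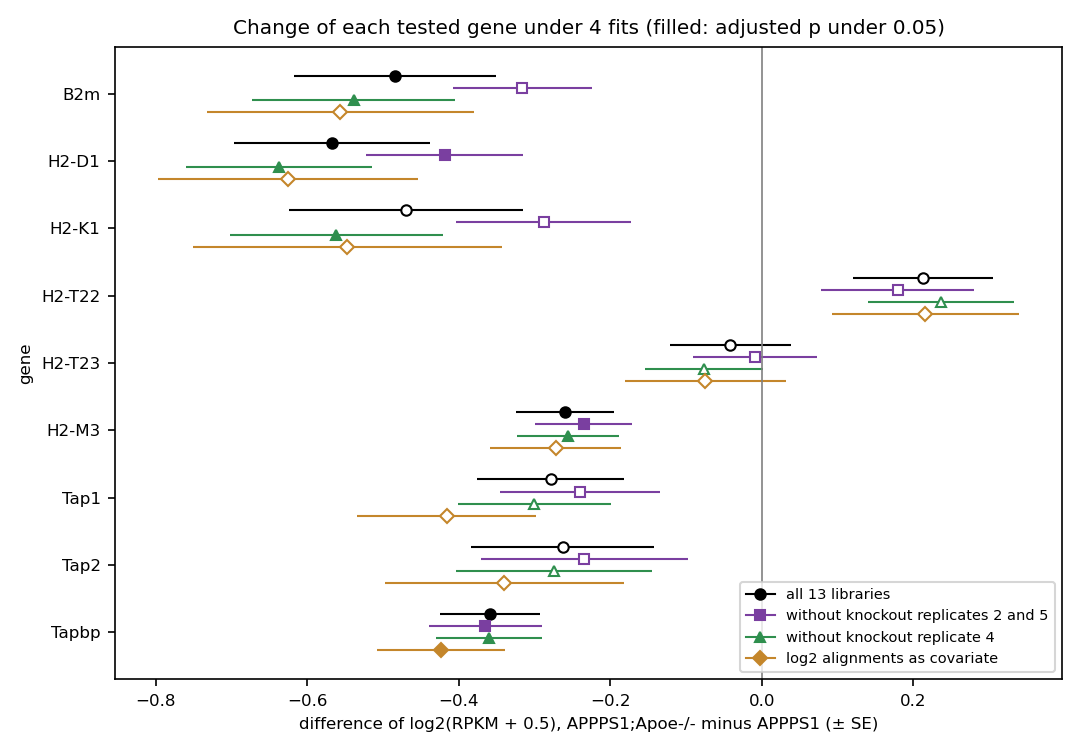
Difference of log2(RPKM + 0.5), APPPS1;Apoe-/- minus APPPS1 (horizontal axis, points with SE), for the 9 tested genes under 4 fits; filled symbols have a limma adjusted p under 0.05. Tapbp is filled in all 4 fits and H2-D1 and H2-M3 in 3 of them, while H2-T22 lies above 0 and H2-T23 near 0.

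The order of levels per length was B2m, H2-D1, H2-T23, H2-K1, Tapbp, then H2-M3 and H2-T22, then Tap2, Tap1 and Nlrc5. H2-T23 was above H2-K1 in all 13 libraries although the ranges of the 2 genes overlapped in each group. H2-M3 and H2-T22 overlapped in both groups. The sum of H2-D1 and H2-K1 ran from 94.75 to 138.7 RPKM in the APPPS1 libraries and from 50.8 to 104.4 RPKM in the knockouts. The ratio of B2m to this sum had a median of 2.65 (2.39 to 3.02) in the APPPS1 libraries and 2.75 (2.57 to 3.48) in the knockouts. The groups thus overlapped in both measures, and neither was tested.

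On the log2 scale the knockout libraries covered a wider range than the APPPS1 libraries for B2m, H2-D1 and H2-K1, while the SD of B2m in RPKM was the same in both groups. Replicate 2 was the lowest of all 13 libraries for 6 of the 10 members and lay below the APPPS1 range for 8. Its log2 distance from the APPPS1 mean was -1.12, -1.11 and -1.18 for B2m, H2-D1 and H2-K1, -0.46 for H2-M3, -0.27 for H2-T23 and 0.20 for H2-T22. Replicate 5, the other library with low App, stood at -0.69, -0.77 and -0.67 for B2m, H2-D1 and H2-K1 and was the highest of all libraries for H2-T22 (0.40). Replicate 3 was lowest for Tap2 (-0.73) and Tapbp (-0.63).

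Replicate 4 was the highest knockout library for 5 members: B2m (-0.16), H2-D1 (-0.15), H2-K1 (0.08), H2-T23 (0.17) and Nlrc5 (0.28). It was not so for Tapbp (-0.35) or H2-M3 (-0.28), which lay within the range of the other knockouts. In that library the class II heavy chain gene H2-Aa stood at 21.2 RPKM, against at most 5.45 RPKM in the other 12 libraries, and Ciita, the class II relative of Nlrc5, at 0.208 RPKM, against at most 0.144 RPKM. The part that these class II values have in the class I levels of replicate 4 was not tested.

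**Figure D3:**
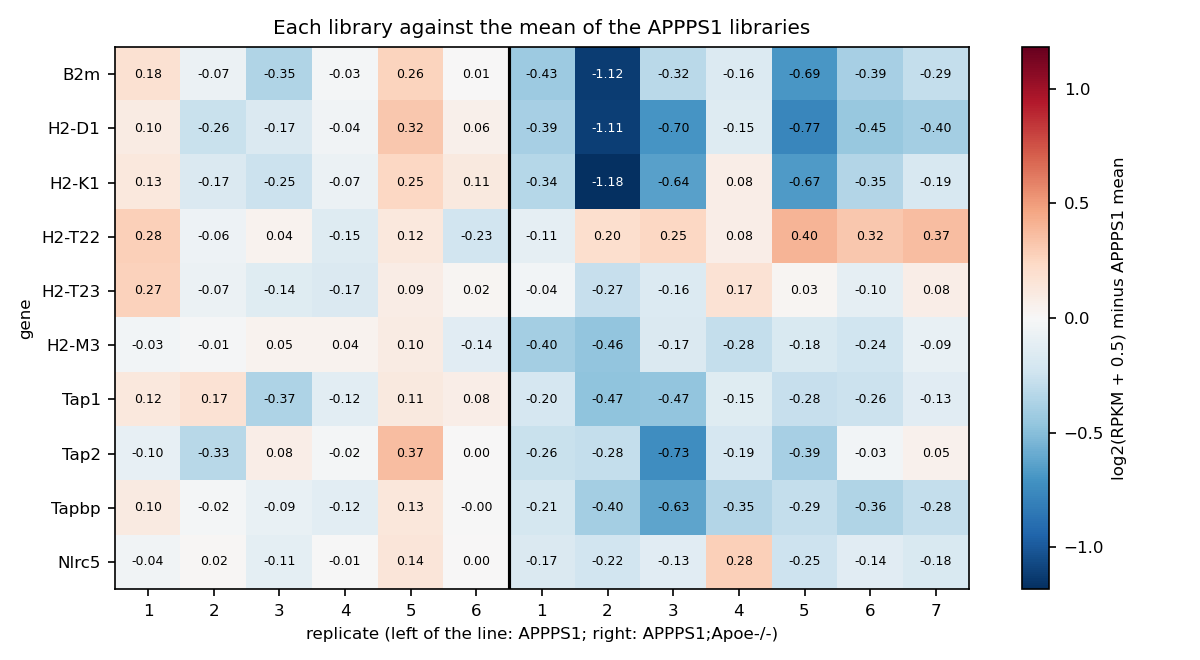
log2(RPKM + 0.5) of each class I gene (rows) in each library (columns, by replicate; APPPS1 left of the line, APPPS1;Apoe-/- right) minus the mean of the 6 APPPS1 libraries. Knockout replicate 2 is lowest for B2m, H2-D1 and H2-K1 (-1.12, -1.11 and -1.18), while replicate 4 is close to the APPPS1 mean for these genes and above it for Nlrc5 (0.28).

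Likeness between genes was measured as the Pearson correlation, over the 13 libraries, of deviations from the group mean on the log2 scale. It describes these libraries and shares their depth. With the mean of the other 9 members it was 0.91 for H2-D1 and H2-K1, 0.81 for B2m, 0.80 for H2-T23 and 0.66 for Tap1. It was 0.54 for Nlrc5, 0.51 for Tapbp, 0.42 for Tap2, 0.34 for H2-M3 and 0.07 for H2-T22. Of 13334 other genes, those most like the mean of the 10 members were Hnrnpu (0.95), Tbkbp1 (0.915), Irf7 (0.91), Fam120a (0.91), Tada3 (0.90), Srgn (0.90), Numa1 (0.90), Psmb8 (0.89), Ccni (0.88) and Ralb (0.88). Psmb8, an immunoproteasome gene, and Irf7, an interferon-induced transcription factor gene, belong to the lists described next.

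Among peptide supply genes the calls lay in the interferon-inducible proteasome. Of 17 other genes of peptide supply and loading, all tested, 3 passed as lower and 0 as higher, beside 4.74% and 3.48% of all genes. The other 14 missed the threshold (median log2 difference of the list -0.06). The immunoproteasome gene Psmb8 fell from 9.98 ± 1.43 to 6.19 ± 1.79 RPKM (SD, n = 6 and n = 7; log2 difference -0.68 ± 0.16, SE; limma adjusted p = 0.0135), Psmb10 by 0.23 (adjusted p = 0.0245) and the proteasome activator gene Psme2 by 0.21 (adjusted p = 0.0239) on the log2 scale. Psmb10 missed the threshold without APPPS1 replicate 2 (adjusted p = 0.06245), and Psme2 without APPPS1 replicate 1, 2 or 6 (at most 0.06151). Without APPPS1;Apoe-/- replicates 2 and 5 there were 2 lower genes in this list, Psme2 having missed the threshold (adjusted p = 0.05781). With the alignments covariate there were 0, the adjusted p being 0.1138 for Psmb8, 0.1245 for Psmb10 and 0.1522 for Psme2. Psmb9, which lies beside Tap1, ran from 4.53 to 6.47 RPKM and from 1.98 to 6.82 RPKM and did not pass (-0.43, adjusted p = 0.1485), with knockout replicate 4 the highest library; without that library the difference was -0.57 (adjusted p = 0.0244). The general chaperone genes of the endoplasmic reticulum had nearly equal means: calreticulin, Calr, 135 ± 12.1 and 139 ± 8.78 RPKM, calnexin, Canx, 111 ± 4.38 and 111 ± 3.01 RPKM, and the disulphide isomerase gene Pdia3 67.3 ± 6.77 and 66.6 ± 5.67 RPKM (SD, n = 6 and n = 7; limma adjusted p = 0.7195, 0.974 and 0.925). The peptide-trimming gene Erap1 (1.94 and 1.70 RPKM) and the peptide editor Tapbpl (5.03 and 4.58 RPKM) did not pass either (adjusted p = 0.324 and 0.177).

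Other heavy chain genes gave no call. Of 22 listed, 20 were in the table and 5 had enough signal to test, and 0 of the 5 were lower or higher by limma, with a median difference of 0.16. Over all genes 4.74% were lower and 3.48% higher. H2-Q7, a Qa-2 gene, ran from 0.242 to 0.493 RPKM and from 0.143 to 1.35 RPKM, and H2-Q4 stayed at or below 0.206 RPKM. Among 5 tested class I-like genes Cd1d1, which presents lipids, was lower (-0.40, adjusted p = 0.0415; not called without APPPS1 replicate 1, 2, 3 or 6 or APPPS1;Apoe-/- replicate 1, 3, 4, 6 or 7, without replicates 2 and 5 together, or with the alignments covariate), and the neonatal Fc receptor gene Fcgrt, at 18.6 ± 1.88 and 18.9 ± 1.97 RPKM (SD, n = 6 and n = 7), did not pass.

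Among regulators of class I transcription, the interferon-linked genes were lower. Of 19 tested genes 3 were lower and 0 higher (median -0.06), beside 4.74% and 3.48% of all genes. Among the 3 were Irf8 (2.82 ± 0.475 to 1.30 ± 0.263 RPKM) and Irf9 (7.65 ± 1.52 to 4.53 ± 1.17 RPKM, SD, n = 6 and n = 7). Their log2 differences were -0.89 and -0.71 (limma adjusted p = 1.34e-04 and 0.0101), and the groups did not overlap in either. Of this list 2 genes were lower without APPPS1;Apoe-/- replicates 2 and 5, and 1 with the alignments covariate, Irf8, Irf9 having missed the threshold (0.06911). Irf8 is also a macrophage gene. Irf1, which binds class I promoters, was at 3.07 ± 0.342 and 2.84 ± 0.222 RPKM (adjusted p = 0.408), and the X-box binding genes Rfx5 and Rfxank, with which NLRC5 works, did not pass (adjusted p = 0.620 and 0.676). Of 7 tested interferon receptor and kinase genes the receptor chains Ifngr2 and Ifnar2 were lower (-0.30 and -0.33, adjusted p = 0.00805 and 0.0366). Ifnar2 was not called without APPPS1 replicate 1, 2, 5 or 6 or APPPS1;Apoe-/- replicate 2, 3, 5 or 6, nor without replicates 2 and 5 together (adjusted p = 0.1307). With the alignments covariate neither was called (adjusted p = 0.06838 for Ifngr2 and 0.1687 for Ifnar2).

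The interferon-induced genes were lower more broadly. Of 21 tested type I interferon-induced genes 16 were lower and 0 higher, with a median of -0.78, and of 13 tested interferon-gamma-inducible genes 5 were lower and 0 higher, with a median of -0.36. Over all genes 4.74% were lower and 3.48% higher. Without APPPS1;Apoe-/- replicates 2 and 5 these lists held 13 and 2 lower genes, beside 3.31% of all genes. With the alignments covariate they held 7 and 0, beside 0.989% of all genes. Oasl2, Ifit1, Irf7, Ifit3, Isg15 and Ifi27l2a had the smallest adjusted p in the first list (log2 differences -1.01, -0.78, -1.05, -0.86, -0.92 and -1.36), and Cxcl10, a T cell chemokine gene, and Gbp3 in the second (-0.97 and -0.85). The summed level of the type I list was 166 RPKM in APPPS1;Apoe-/- replicate 4, inside the 103 to 186 RPKM of its group, below replicates 3 and 7. The summed interferon-gamma list was highest among the knockouts in replicate 4 (38.3 RPKM, with replicate 1 at 37.8 RPKM).

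Most genes of the class I receptor list and most T cell markers lay below the filter. Of 12 genes on that list 2 were tested. Lilrb4a, an inhibitory receptor gene of myeloid cells with near-identical copies, was lower (-1.78, limma adjusted p = 0.00377). This call ended with the alignments covariate (-1.61, adjusted p = 0.06874). The place of Lilrb4a on the list does not show that its product binds class I molecules. Pirb, a class I receptor gene of myeloid cells and neurons, ran from 0.311 to 0.611 RPKM and from 0.241 to 0.836 RPKM. Cd8a, the co-receptor of class I-restricted T cells, was at most 0.110 RPKM and at 0 in some libraries, and Cd3e, a T cell receptor gene, was at most 0.351 RPKM. The 13 T and natural killer cell markers in the table summed to 1.56 to 2.46 RPKM in the APPPS1 libraries and 1.14 to 2.67 RPKM in the knockouts, and 9 of the 13, Cd3d, Cd3g, Cd8a and Cd8b1 among them, were at 0 in at least 1 library.

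Most microglial markers were lower as well. Of 12 markers 9 were lower and 0 higher (median -0.54), beside 4.74% and 3.48% of all genes. Without replicates 2 and 5, 8 markers were lower (3.31% of all genes), and with the alignments covariate 1 was (0.989% of all genes). The 12 markers summed to 610 to 697 RPKM in the APPPS1 libraries, to 397.5 to 435 RPKM in 5 knockout libraries and to 219 and 246 RPKM in replicates 2 and 5. Of the 12, 0 were at 0 in any library. Endothelial markers, from the other main class I-expressing cells, summed to 155 to 197 RPKM and 171 to 203 RPKM, and of 12 tested Kdr was lower and Ly6c1 and Ly6a, which interferon can induce, were higher (median -0.10), 0 of them with the alignments covariate. The 10 cortical neuron markers, which mark the labelled tissue, summed to 2610 to 3218 RPKM and 2725 to 3275 RPKM. Slc17a7 was lower and 0 were higher (median -0.05), and 0 were called without replicates 2 and 5 or with the alignments covariate. The 8 striatal markers summed to 326 to 801 RPKM and 426 to 910 RPKM. None of them was called in the main fit (median 0.44), but 2 were higher with the alignments covariate, beside 0.525% of all genes. Of 7 tested oligodendrocyte markers 3 were higher and 0 lower, and of 8 astrocyte markers 2 were lower and 0 higher. Without replicates 2 and 5 there were 0 higher oligodendrocyte markers and 1 lower astrocyte marker. With the alignments covariate 0 of either were called. The part of the microglial or striatal markers in the class I differences was not tested. The number of alignments entered 1 fit as a covariate. There the log2 differences were -0.56 ± 0.18 for B2m, -0.63 ± 0.17 for H2-D1, -0.27 ± 0.09 for H2-M3 and -0.42 ± 0.08 for Tapbp (SE). In the main fit they were -0.48 ± 0.13, -0.57 ± 0.13, -0.26 ± 0.06 and -0.36 ± 0.07. Because the knockout libraries were the shallower ones, that fit cannot fully separate genotype from depth.

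**Figure D4:**
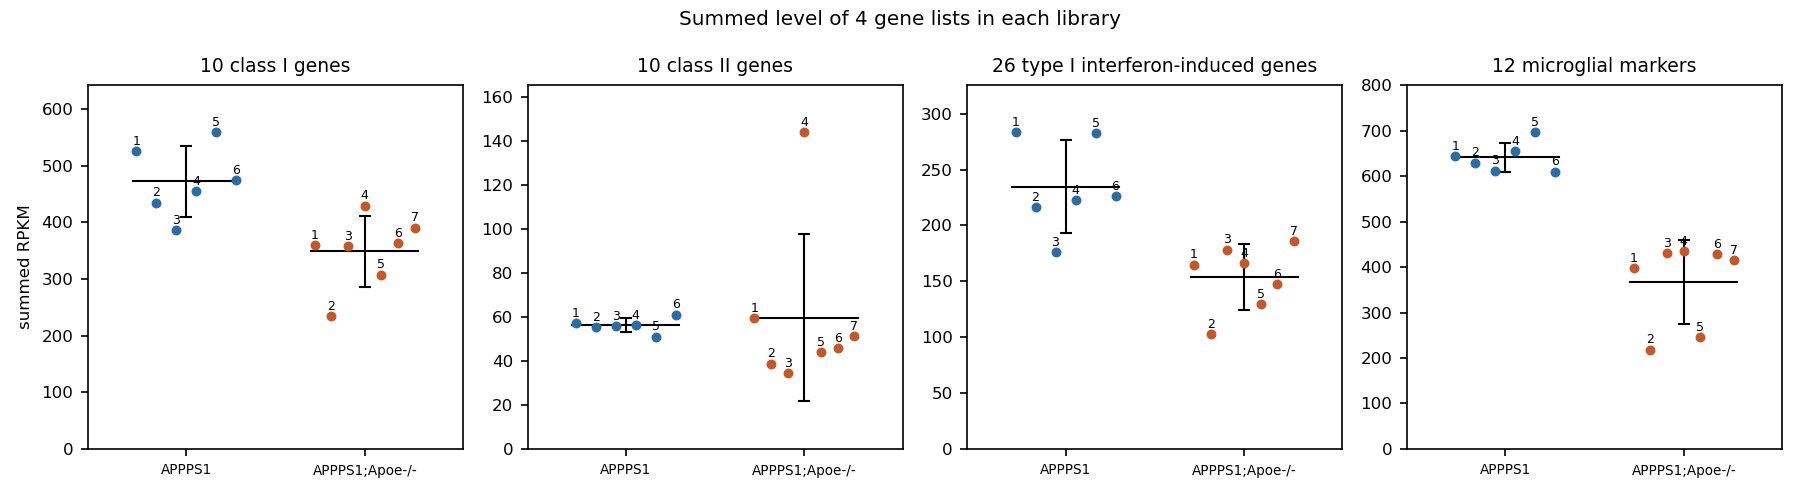
Summed RPKM (vertical axis, from 0) of 4 gene lists, 1 point per library with its replicate number; genotypes are side by side, and each line with its whiskers is a mean ± SD (n = 6 and n = 7). Microglial markers are below 435 RPKM in the APPPS1;Apoe-/- libraries and above 610 RPKM in the APPPS1 libraries, and class II genes reach 144 RPKM in APPPS1;Apoe-/- replicate 4.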

How the data were processed

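The deposited table holds RPKM per gene for 13 libraries, made by the authors, and an alignment total for each. Partek and mm10 are named per the submitters' processing notes. Trizol extraction and the Clontech SMARTer kit are named per the labels' protocols. Aligner, counting rule, strand use, gene annotation: not given in the sources used here. The genotype in the table matched the label for 13 of 13 libraries. Replicates were numbered in accession order. The series' design counts them as mice, and p-values measure the spread between them.

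Values were taken as log2(RPKM + 0.5), and the 13343 genes averaging 0.5 RPKM or more over all libraries were fitted with limma 3.58.1 in R 4.3.3 (lmFit, eBayes with trend, genotype as the term), two-sided with Benjamini-Hochberg adjustment. The code was tested on simulated data. Members, lists, named genes (all members, set pathway genes and up to 6 called genes per list) and the 26 other settings were chosen with earlier results of these data known. The class I receptor Lilrb3 was read under its synonym Pirb. Gene positions follow GENCODE mouse release 21 (mm10). Promoter windows come from RefSeq on GRCm38.p6, the same assembly. Python 3.11.15 with pandas 2.3.3 and matplotlib 3.10.9 made tables and figures. The values of 1 gene of the class I transcription list are not reported here.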

Additional observations from a re-analysis of the deposited data

Results flagged for a closer look

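Nlrc5 in APPPS1;Apoe-/- replicate 4 stood at 0.297 RPKM, while the other 6 libraries of the group lay between 0.0525 and 0.0988 RPKM, so that its gap to the nearest library took 0.811 of the whole range of the group (critical value 0.568 for 7 libraries). It was the one such gap in 26 groups examined, the 10 members and the 3 genes Apoe, App and Thy1 in each genotype. Chance alone takes a gap past the critical value in about 1 in 20 groups, and 26 groups were examined, so a flag among them is not unusual.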

How the results depend on the processing

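There were 26 other settings, 13 of them leaving out 1 library each. The number of lower members was 4 in the reported fit, 1 with the alignments covariate and 3 to 5 without single libraries; the number higher was 0 throughout. Over all genes 633 were lower and 465 higher, 132 and 70 with the alignments covariate, and 428 to 854 and 271 to 742 without single libraries. The number higher was 236 without APPPS1;Apoe-/- replicates 2 and 5, and 279 without replicates 2, 4 and 5. Among the genes of the other pathway lists 31 were lower, 8 with the alignments covariate, 19 without replicates 2, 4 and 5, and 23 to 32 without single libraries; 0 were higher, or 0 to 1 without single libraries. B2m lost its call with no filter on low values (adjusted p = 0.0869), where more genes are tested, with the covariate (0.118) and without replicates 2 and 5 (0.06311), and H2-K1 gained one with array weights (0.04507). Genes near 0 changed sign without a call. H2-T23 ran from -0.0763 to 0.0132 without single libraries, Calr from -0.0085 to 0.0653, Canx from -0.0101 to 0.0163, Pdia3 from -0.0682 to 0.0181 and Fcgrt from -0.0092 to 0.0727. Calr was -0.0165 without replicates 2, 4 and 5. Canx was -0.0217 with quantile normalization, -0.0022 with median-of-ratios scaling and -0.0024 with array weights. Pdia3 was 0.0149 with a sex score as covariate. Fcgrt was -0.0241 with the covariate, -0.024 without replicates 2 and 5, and -0.0458 without replicates 2, 4 and 5. The cause was not tested. Depth limits Nlrc5 and Tap1 most. No paired analysis was possible because the labels give no replicate numbers that the groups share.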
